A study of Mus musculus with 3 samples.

Results

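The genes described are those of the cytosolic ribosomal proteins, taken as every row of the count tables whose symbol starts with Rpl or Rps followed by a digit, together with Rpsa, Rplp0, Rplp1 and Rplp2, without the rows named as pseudogenes and without the Rps6k kinases. Of 17226 genes listed in the 3 libraries together, 84 met this rule, and 83 of these were listed in the library taken at 1 week, where Rpl39l was absent. The tables hold unique molecular identifiers (UMIs) per gene and cell barcode from the 10X Genomics Chromium 3′ assay on dissociated Langerhans islets of C57/Bl6 mice, with live cells sorted beforehand. The study asked which islet cells respond when TAF4, a subunit of the general transcription factor TFIID, is lost from beta cells. WT was 1 library from 300 islets of 1 mouse of the same strain, whose genotype is labelled only as wild type. By the methods of the study, the mice of all 3 libraries were male. The study describes its Taf4+/+ controls as carrying Ins1::Cre-ERT2 and receiving tamoxifen like the mutants. TAF4 KO 1 week and TAF4 KO 5 weeks were 1 library each from 300 islets pooled from 2 adult mice with floxed Taf4 alleles and the tamoxifen-inducible Ins1::Cre-ERT2 transgene, taken 1 week and 5 weeks after inactivation. Since the insulin promoter drives Cre, beta cells are the targeted cells in these mice and alpha and delta cells are not. Each condition is 1 library, so no difference between conditions has a replicate check or a test, and what belongs to the genotype, to the animals or to the library cannot be told apart.

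Each cytosolic ribosome is built from a small 40S subunit, which reads the mRNA, and a large 60S subunit, which joins amino acids, and each subunit is ribosomal RNA in a complex with many proteins. The genes of these proteins are among the most highly transcribed of any cell, and many of their mRNAs begin with a run of pyrimidines at the cap through which growth signalling sets their translation. Beta cells devote much of their protein synthesis to proinsulin, and the stress that follows from misfolded proinsulin is known to slow translation.

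Beta cells were cells with 20% or more of their UMIs from Ins2 and under 3% from Gcg, alpha cells had 15% or more from Gcg and delta cells 5% or more from Sst. In the 1-week library the thresholds were 5%, 8% and 1.5% in cells of at least 5000 UMIs. These rules took 97.5% of the WT barcodes, 33.7% at 1 week and 91.3% at 5 weeks. A level is the UMIs of a gene per 1000000 UMIs summed over the cells of a class (CPM), and a share is in percent of the same total, from which 8 hormone genes and the mitochondrial genes were left out. Beside these hormones, the 9 beta markers, 10 alpha markers and 7 delta markers were all above 0 in each pool of their own class. At 5 weeks the markers of the other classes were above 0 too, so this does not set a class apart. Summed, each set was highest in its own class in each library. In WT the beta markers had 7401 CPM in beta, 422 in alpha and 1097 in delta cells. In the same order the alpha markers had 4177, 72810 and 2613 CPM, and the delta markers 378, 1924 and 13113. Levels are thus relative, and less ribosomal protein mRNA per cell cannot be told apart from more of other RNA. Ratios are on the log2 scale, and parentheses after a ratio or share hold its exact 95% interval, which covers counting error only. WT contributed 19472212 UMIs, the 1-week library 23131247 and the 5-week library 39408284, and median depth in beta cells was 1656, 24754.5 and 3868 UMIs per cell.

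Some properties of the libraries stand beside every comparison. The WT mouse is labelled male, yet its library held 17357 Xist and 0 Ddx3y UMIs, while the mutant libraries held 17 and 11 Xist and 1488 and 1349 Ddx3y UMIs. Taf4 itself had 16.4, 13.96 and 11.6 CPM in beta cells of WT, 1 week and 5 weeks, from 75, 113 and 99 UMIs, and tags at the 3′ end check the deletion only if they lie within the deleted part. In the WT classes the 10 acinar markers, none of them at 0, summed to 17401 to 23992 CPM, which exceeds the 1873 to 3522 CPM of the 5-week classes and the 10.1 to 29.5 CPM of the 1-week classes. Malat1, a nuclear RNA, had 15762 CPM in WT beta cells, with 45150 CPM at 1 week and 38688 CPM at 5 weeks. The part of these properties in the ratios below was not tested. Between 2 and 33 barcodes were shared by a pair of libraries, and 202 cells at 5 weeks met the rule of more than 1 class, against 2 in WT and 1 at 1 week.

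The sequence around the transcription start is given for 8 genes to which the results below return, from RefSeq on GRCm38.p6, which is mm10, the build of the counts. Rps24 was the most abundant member in WT beta cells. Rps9, Rpl39 and Rpsa were among the lowest ratios of 5 weeks to WT, Rpl7l1 was the highest, and Rpl13a, Rpl5 and Rpl22l1 stood at the ends of the range at 1 week. Each line holds 30 bases before the start and 20 from it on, and capitals mark the longest unbroken run of C and T letters on the strand of the gene that reaches to within 5 bases of the start.
Rps24 (chr14:24490648-24490697, plus strand): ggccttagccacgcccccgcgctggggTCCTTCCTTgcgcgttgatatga
Rps9 (chr7:3704011-3704060, plus strand): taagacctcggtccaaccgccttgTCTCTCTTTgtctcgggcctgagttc
Rpl39 (chrX:37085203-37085252, minus strand): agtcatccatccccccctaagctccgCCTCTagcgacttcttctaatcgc
Rpsa (chr9:120127736-120127785, plus strand): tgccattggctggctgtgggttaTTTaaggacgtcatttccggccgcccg
Rpl13a (chr7:45128726-45128775, minus strand): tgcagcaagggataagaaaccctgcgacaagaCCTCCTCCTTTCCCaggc
Rpl5 (chr5:107900498-107900547, plus strand): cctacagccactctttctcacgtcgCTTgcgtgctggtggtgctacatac
Rpl22l1 (chr3:28805478-28805527, plus strand): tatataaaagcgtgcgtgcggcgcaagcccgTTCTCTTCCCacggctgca
Rpl7l1 (chr17:46782637-46782686, minus strand): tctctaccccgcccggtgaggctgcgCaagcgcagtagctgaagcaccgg

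A run of 6 or more such letters was present at a start of 33 of the 64 members found in the promoter table (51.6%), and of 24.0% of all 27025 genes there. By this count the run was found at the annotated starts of only part of these 64 members. It was present in 11 of 19 members with a promoter entry that were 1.5-fold or more lower in beta cells at 5 weeks and in 21 of 44 that were not. These are matches of letters and not measured start sites, so they do not show which mRNAs begin with a run.

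In WT the members together made up 13.3% (13.26 to 13.32) of the UMIs of beta cells, 19.9% (19.87 to 20.01) in alpha cells and 14.1% (14.01 to 14.28) in delta cells. In single cells the share ran from 9.59% at the 5th percentile to 17.4% at the 95th in beta cells, around a median of 13.2%. Alpha cells ran from 14.6% to 25.2% and delta cells from 10.6% to 18.3%, so that the classes overlapped cell by cell. The standard deviation over WT beta cells was 2.39 percentage points, where counting error alone would give 1.56. Depth tertiles of WT beta cells, with median depths of 1199, 1656 and 2814 UMIs, held 13.4%, 13.1% and 13.3%. Near the threshold of the class, 27 WT cells with 15% to 20% Ins2 held 9.12% and 47 with 20% to 25% held 9.69%, and at 5 weeks the corresponding 84 and 89 cells held 10.5% and 10.1%.

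**Figure D1:**
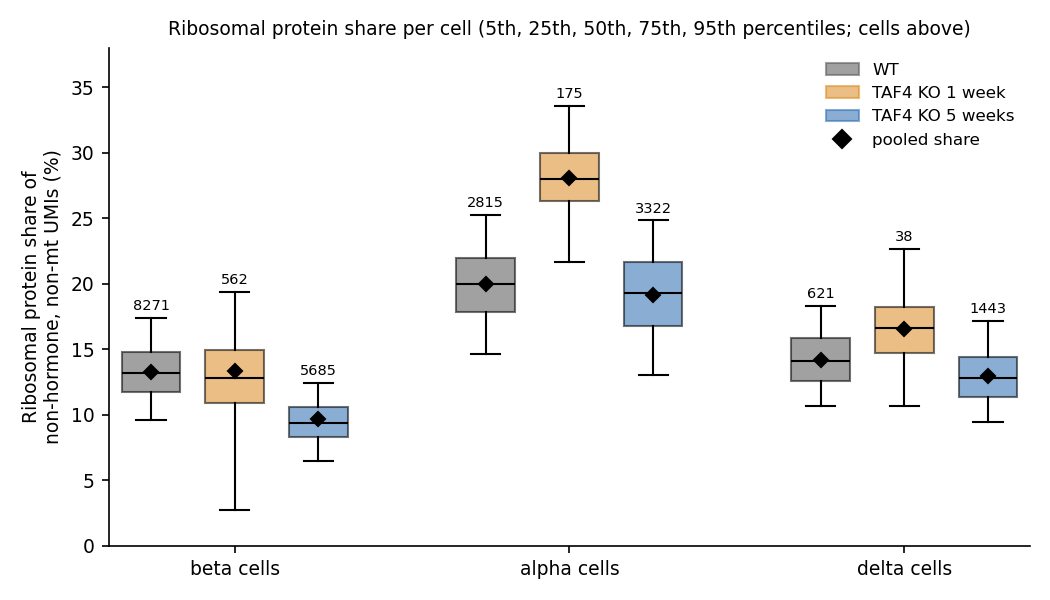
Share of ribosomal protein UMIs in percent of non-hormone, non-mitochondrial UMIs, by cell class on the x axis and library in colour, where boxes span the 25th to 75th percentiles over cells with the median as a line, whiskers the 5th to 95th, diamonds the pooled share, and numbers the cells. The 5-week beta box lies at 8.27% to 10.6%, below the WT beta box at 11.8% to 14.8%, while the alpha boxes of WT and 5 weeks overlap.

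Levels of single members in WT beta cells spanned a wide range, from Rpl39l, with 2 UMIs, to Rps24, with 22353 UMIs. Counts from the 3′ assay are 1 per captured molecule and carry no factor of length. The 10 most abundant members held 27.1% of the members' UMIs. They were Rps24 at 4878 CPM, Rpl41 at 4467, Rps27a at 4341, Rpl19 at 3984, Rpl13 at 3689, Rps3a1 at 3231, Rpl11 at 3092, Rpl27a at 2827, Rpl9 at 2779 and Rpsa at 2672. Of these, Rpl41 is the smallest ribosomal protein, Rps27a is made as a fusion to ubiquitin, Rpl11 binds the 5S RNA with Rpl5, and Rpsa is also known as a laminin receptor. The median member stood at 1574 CPM and 55 members were above 1000. Several members outside the core of the ribosome were low, as was Rpl13a of the core. Rpl7l1, which acts in 60S assembly in the nucleolus, stood at 65.0 CPM, Rps19bp1, a partner of Rps19 that is not a subunit protein, at 63.1, and Rps27rt at 31.4. Rpl22l1, a paralog of Rpl22, was high, at 1824 CPM against 592 for Rpl22.

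The balance between the subunits was similar in all 9 pools. The UMIs of the 43 core 60S genes over those of the 31 core 40S genes gave 1.26 (1.25 to 1.27) in WT beta cells, 1.37 (1.37 to 1.38) at 1 week and 1.30 (1.29 to 1.30) at 5 weeks. In alpha cells the ratio was 1.22, 1.25 and 1.19, and in delta cells 1.22, 1.26 and 1.22. Beta cells at 1 week had the highest value of the 9, and the spread between animals behind these ratios is not known.

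At 5 weeks the members made up 9.67% (9.65 to 9.69) of the UMIs of beta cells, 72.7% of the WT share and a log2 ratio of -0.46 (-0.46 to -0.45). The alpha share of 19.1% (19.1 to 19.1) gave -0.06 (-0.07 to -0.05) against WT, and the delta share of 12.9% (12.9 to 13.0) gave -0.13 (-0.15 to -0.11). The 5-week value was thus lower than WT in each class, by the most in beta cells, the class in which Cre is active, and the difference between classes has no replicate behind it. Among cells of 1000 to 3500 UMIs the beta ratio was -0.53, and among cells of 5000 or more UMIs it was -0.45 with 26 WT cells. With the looser 1-week thresholds and 5000 UMIs in both libraries it was -0.03, where 32 WT cells entered, 6 of them with 57.9% of their UMIs from acinar markers and a member share of 5.10%. Leaving acinar, haemoglobin and nuclear RNA genes out of the totals gave -0.45.

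Single members went the same way in beta cells at 5 weeks. Of 83 members with at least 100 UMIs in both pools together and 3 in each, 71 were below WT and 12 above. In the lower direction 24 were past 1.5-fold (28.9%), beside 12.8% of all 9182 genes tested, and 1 was past it in the higher direction, beside 16.4% of all genes. The median member had a log2 ratio of -0.40 where the median of all genes was 0.08. Scaled to the median of the other genes, 33 members were 1.5-fold or more lower, beside 15.7% of all genes. Past 2-fold lower were 2 of 83 members, Rpl39 among them, a smaller share than the 5.02% of all genes.

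Rpl39, a small protein at the exit tunnel of the ribosome, stood at 1952 CPM in WT beta cells, 1191 at 1 week and 846 at 5 weeks, and its ratio of 5 weeks to WT was -1.21 (-1.25 to -1.16). Rps9, of the 40S subunit, stood at 1774, 787 and 895, a ratio of -0.99 (-1.03 to -0.94). Both were highest in WT and lower in both mutant libraries, and Rps9 was lowest at 1 week. Rpl36al was at 429 in WT and 229.5 at 5 weeks, a ratio of -0.90 (-0.99 to -0.81), and Rpsa at 2672 and 1430, a ratio of -0.90 (-0.94 to -0.87). Of the 10 most abundant members, Rps24, Rps27a, Rpl19 and Rpl27a were past 1.5-fold with Rpsa, at -0.60, -0.82, -0.74 and -0.61. Rpl41 stood at 4467 in WT and 3868 at 5 weeks, a ratio of -0.21, and so was the most abundant member at 5 weeks.

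Some of the same genes in the other classes give the scale of these values. Rps9 had 2694, 2381 and 2463 CPM in alpha cells of WT, 1 week and 5 weeks, and 2330, 2228 and 1909 CPM in delta cells. Rpsa had 4239, 5236 and 4102 CPM in alpha cells and 2683, 2364 and 2287 CPM in delta cells. For Rps9 and Rpsa the alpha ratios of 5 weeks to WT were thus -0.13 and -0.05, beside -0.99 and -0.90 in beta cells. Beyond the genes named so far, the members past 1.5-fold lower in beta cells included Rpl29 and Rpl28, both at -0.83, Rps27rt at -0.77 (-1.10 to -0.43), Rpl22l1 at -0.75, Rps12 and Rpl37a at -0.73, Rps19 at -0.71, Rps27 at -0.65, Rpl8 at -0.62, Rps13 at -0.61, and Rps23, Rps15a and Rps26 at -0.60. Just short of the fold, at -0.57 and -0.56, stood Rps16, Rpl30, Rpl23 and Rps29.

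At the other end stood Rpl7l1, the assembly factor, with 65.0 CPM in WT beta cells, 98.6 at 1 week and 117 at 5 weeks, a ratio of 0.85 (0.66 to 1.04). Rps19bp1 had 63.1 and 78.1 CPM, a ratio of 0.31 (0.11 to 0.51). Both of the highest ratios thus belonged to genes that do not encode subunit proteins of the mature ribosome. Among the subunit genes near the high end were Rpl5, which carries the 5S RNA, at 0.18 (0.12 to 0.25) and Rps15 at 0.18 (0.10 to 0.26). The stalk, where elongation factors dock, was split. Rplp0, its base, stood at 2597 CPM in WT and 2655 at 5 weeks, a ratio of 0.03, while Rplp1 had -0.49 and Rplp2 -0.18.

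By group, 13 of 31 core 40S genes and 8 of 43 core 60S genes were 1.5-fold or more lower in beta cells at 5 weeks and none was higher, with medians of -0.52 and -0.38, beside the 12.8% lower and 16.4% higher among all genes. Of the 6 paralogs and related genes tested, 3 were lower and 1 higher. The 4 genes on the X chromosome, which are given apart because the Xist and Ddx3y counts set WT apart from both mutant libraries, were Rpl39 at -1.21, Rps4x at -0.83, Rpl10 at -0.52 and Rpl36a at 0.14. The part of sex in these values was not tested. Rps9, with a ratio of -0.99, lies on chromosome 7.

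**Figure D2:**
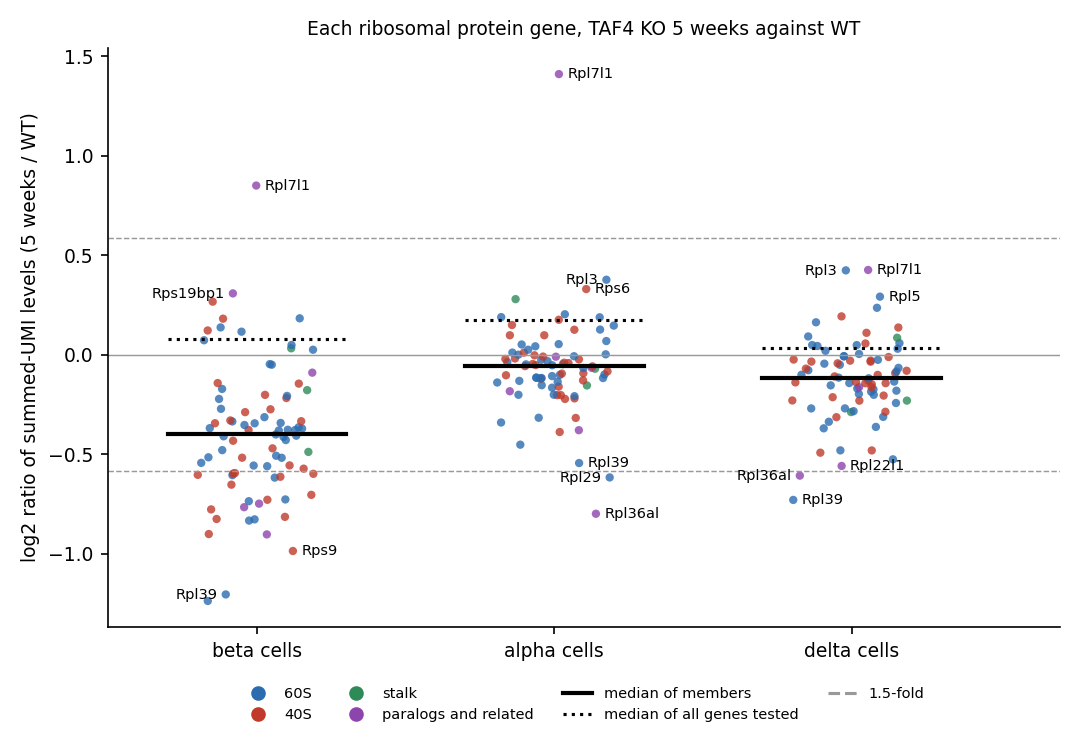
Log2 ratio of the level at 5 weeks to that in WT on the y axis for each member tested, in beta, alpha and delta cells, where points are genes coloured by group, solid lines medians of the members, dotted lines medians of all genes tested and dashed lines 1.5-fold. In beta cells the median member lies at -0.40 and the median of all genes at 0.08, while in alpha and delta cells the member medians lie at -0.06 and -0.12.

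In alpha cells the 5-week members were closer to WT. Of 83 tested, 2 were 1.5-fold or more lower, beside 4.06% of all genes, and 1 was higher, beside 17.8%, which is no larger a share than that of all genes in either direction. The median member was at -0.06 where the median of all genes was 0.17. Rpl36al, a paralog of Rpl36a, had 366 CPM in WT and 210 at 5 weeks, a ratio of -0.80 (-0.97 to -0.63), and Rpl29 had -0.62 (-0.70 to -0.54). Rpl39 at -0.55 and Rps26 at -0.39 were also near the low end. The highest were Rpl7l1 at 1.41 (0.89 to 1.97), at 26.3 and 69.8 CPM, Rpl3 at 0.38, Rps6 at 0.33, Rplp0 at 0.28 and Rpl5 at 0.20. Rpl3 lies near the catalytic centre of the 60S subunit, and Rps6 is the target of the S6 kinases.

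In delta cells 2 of 81 members were 1.5-fold or more lower (7.31% of all genes) and none was higher (13.3% of all genes), so here too the members were past the fold no more often than genes at large. Rpl39 stood lowest at -0.73 (-0.89 to -0.57), then Rpl36al at -0.61 (-0.97 to -0.23), Rpl22l1 at -0.56, with Rps12 at -0.49 also near the low end. Highest were Rpl7l1 at 0.43 (-0.36 to 1.31), whose interval spans 0, Rpl3 at 0.42, Rpl5 at 0.29, Rpl4 at 0.24 and Rps21 at 0.19. Rpl39 and Rpl36al were thus below WT in all 3 classes at 5 weeks, with each alpha and delta ratio nearer to 0 than that in beta cells. Ins2 made up 2.91% of the UMIs of alpha cells in WT and 6.49% at 5 weeks, and 4.30% and 10.6% of those of delta cells, and the part of beta cell RNA in the alpha and delta ratios was not tested.

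Within the 5-week library the beta share differed between cells. Ordered by the summed share of 10 stress genes (Ddit3, Herpud1, Hspa5, Atf4 and 6 more, left out of the denominator here), the lowest, middle and highest tertile of beta cells held 10.4%, 9.82% and 9.02%. The same order in WT gave 13.6%, 13.5% and 12.9%, and at 1 week 13.0%, 13.8% and 13.4%. The member share of the lowest tertile at 5 weeks was below that of every WT tertile. Tertiles were cut within each library and are not matched for stress. The stress genes took 0.33% in the lowest tertile at 5 weeks, and 0.015%, 0.22% and 0.56% in the WT tertiles. The part of stress in the member share was not tested. By mitochondrial share, 5-week beta cells under 5% held 9.74%, those from 5% to 10% held 8.95% and the 113 cells above that 6.58%, with median depths of 4316, 1842 and 882 UMIs. Malat1 took 3.75%, 4.95% and 9.54% of their UMIs. In WT the same bins held 13.2%, 13.7% and 13.1%. Depth, the mitochondrial share and nuclear RNA moved together across these cells, and their part in the share was not tested.

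A set of 96 beta cells at 5 weeks had member shares under 5%, as did 44 of 562 at 1 week and 5 of 8271 in WT. At 1 week these 44 cells held 2.65% from members, 28.3% from Malat1 and a median mitochondrial share of 20.8%, at a median of 6764.5 UMIs. The other 518 cells held 13.5%, 4.10% and 2.22%, at 26079.5 UMIs. Over beta cells the standard deviation of the member share was 5.81 percentage points at 1 week against 1.93 at 5 weeks.

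**Figure D3:**
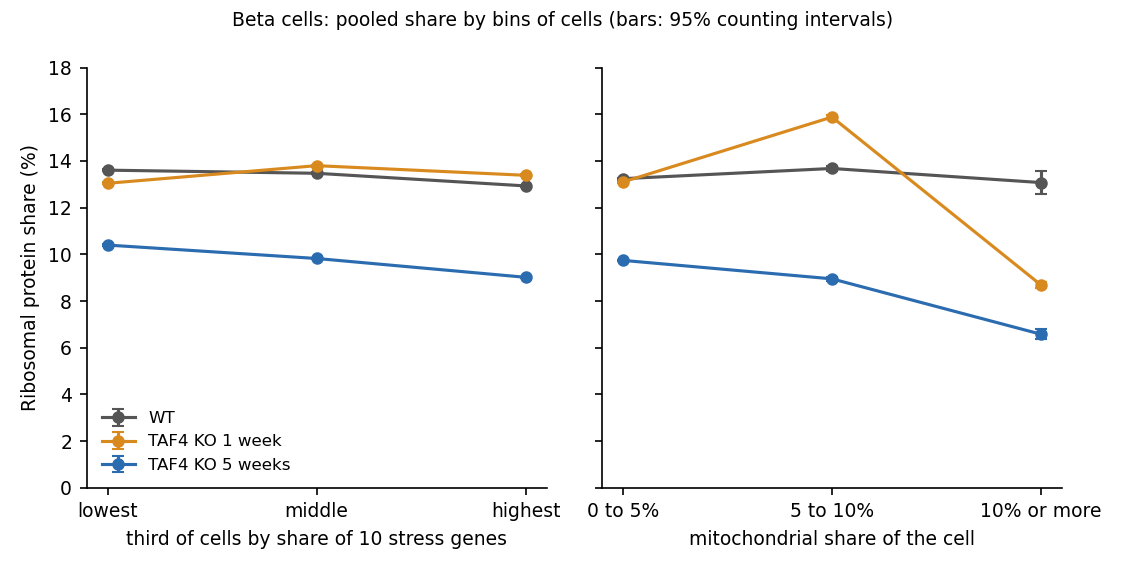
Pooled ribosomal protein share of beta cells in percent, by tertile of the stress-gene share (left) and by mitochondrial share (right), for each library, with 95% counting intervals as error bars. The 5-week line lies below the WT line at every point, and at 1 week the bin of 10% or more mitochondrial UMIs drops to 8.68%.

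At 1 week the sum of the members in beta cells equalled that of WT, at 13.3% (13.29 to 13.34) and a ratio of 0.00, but single members stood apart, from -1.68 to 1.68. In alpha cells the share was 28.1% (28.0 to 28.1), a ratio of 0.49 (0.49 to 0.50), and in delta cells, from 38 cells, 16.5% (16.4 to 16.7), a ratio of 0.23 (0.21 to 0.24). These ratios depend on what stands in the total. With hormones and mitochondrial genes included they were 0.92, 0.89 and 0.54, and relative to the median of the other genes -0.23, 0.26 and 0.19, so the sign in beta cells turned with the scaling. The study limits on detected genes left 17 beta cells at 1 week, with a ratio of 1.14.

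Of 83 members in beta cells at 1 week, 20 were 1.5-fold or more above WT, beside 31.5% of all genes, and 9 below, beside 15.5% of all genes, which are smaller shares than among genes at large. Against the median of the other genes the split was 13 above, beside 20.9% of all genes, and 17 below, beside 23.1%. With all UMIs in the total it was 66 above, beside 76.4% of all genes, and 1 below, beside 3.68%, so under this total most genes stood above WT with the members. In alpha cells 39 of 83 members were above, beside 33.2% of all genes, and 1 below, beside 17%. In delta cells 27 of 80 were above, beside 24.9%, and 2 below, beside 15.7%.

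The 5 members that were highest at 1 week in beta cells were high in all 3 classes. Rpl13a, of the 60S subunit, stood at 64.6 CPM in WT beta cells, 207 at 1 week and 49.7 at 5 weeks. Its level in alpha cells was 129, 640 and 102, and in delta cells 55.2, 304 and 61.8. Its ratio of 1 week to WT was 1.68 (1.5 to 1.86) in beta, 2.31 (2.08 to 2.55) in alpha and 2.46 (1.69 to 3.33) in delta cells. Each class was thus high in the 1-week library alone, with WT and 5 weeks both far below it. Rps15, of the 40S head, stood at 423, 1283 and 480 in beta cells, with ratios of 1 week to WT of 1.60, 2.69 and 2.28 in beta, alpha and delta cells. Rpl23a, near the tunnel exit where the signal recognition particle docks, had 1.61, 2.83 and 1.99, Rpl17 had 1.64, 1.84 and 1.80, and Rpl5 had 1.49, 2.37 and 2.24.

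Rpl22l1 was the lowest member at 1 week in each class. It stood at 1824 CPM in WT beta cells, 569 at 1 week and 1085 at 5 weeks, with ratios of 1 week to WT of -1.68 (-1.73 to -1.63) in beta, -0.89 (-0.96 to -0.81) in alpha and -1.22 (-1.41 to -1.03) in delta cells. Rpl22, its paralog, had 0.46, 0.98 and 0.83. The other low members in beta cells were Rps9 at -1.17 (-1.22 to -1.12), Rps27a at -0.91 (-0.94 to -0.88), Rpsa at -0.81 (-0.85 to -0.78) and Rpl39 at -0.71 (-0.75 to -0.67). In alpha cells these 4 had -0.18, -0.19, 0.30 and 0.17, so only Rps9 and Rps27a were below WT in both. With all UMIs in the total, Rpsa, Rpl39 and Rps27a in beta cells came to 0.10, 0.21 and 0.00, which turns their direction. Rpl22l1 and Rps9 kept theirs. Of the stalk, Rplp0 had -0.61, Rplp1 0.32 and Rplp2 0.27 in beta cells, and of the X-linked genes Rpl10 had 1.06, Rpl36a 0.80 and Rps4x -0.64. Of the paralogs Rps27rt had 0.93, Rpl7l1 0.60, Rps27l, a paralog of Rps27, 0.14, Rps19bp1 0.06 and Rpl36al -0.51.

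**Figure D4:**
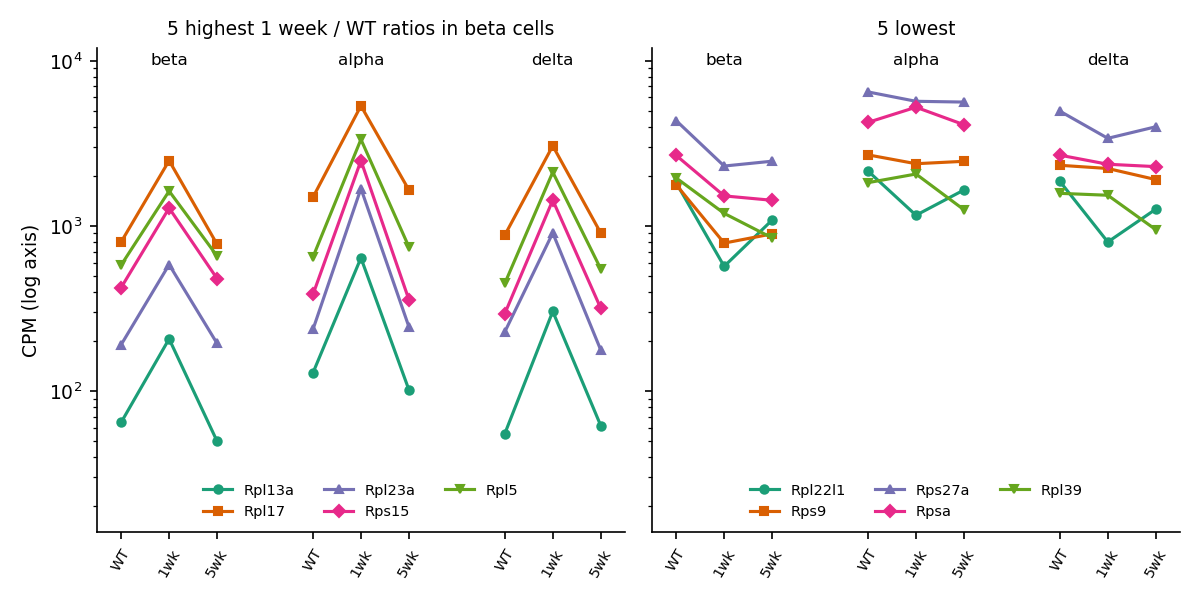
Level in CPM on a log axis for the 5 members with the highest (left) and the 5 with the lowest (right) ratio of 1 week to WT in beta cells, in each class and library, with lines joining the 3 libraries of a class. The genes on the left peak in the 1-week library in all 3 classes, as for Rpl13a at 207, 640 and 304 CPM. Of those on the right, Rpl22l1, Rps9 and Rps27a lie below WT at 1 week in all 3 classes. For Rps9 in delta cells the gap is small.

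The order of the members by level shows the same. Spearman's correlation with the order in WT beta cells, over 84 members, was between 0.94 and 0.96 in the alpha and delta pools of WT and in all 5-week pools, and between 0.75 and 0.78 in the 1-week pools. This is a description over genes measured in the same libraries. Members were also split by their number of pseudogene loci annotated in RefSeq. Those with 7 or more such loci had a median ratio of 1 week to WT in beta cells of 0.19, those with 3 to 6 had 0.02 and those with 0 to 2 had 0.07. Reads that match both a gene and a near-identical copy could have been counted differently between genes, and values of members with such copies are uncertain for that reason.

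Between the mutant libraries, which share the genotype of the mice, the members were lower at 5 weeks than at 1 week in each class. The ratio of the sums was -0.46 in beta cells (72.6% of the 1-week share), -0.56 in alpha cells (68.0%) and -0.36 in delta cells (78.2%). In beta cells 35 of 83 members were 1.5-fold or more lower, beside 22.3% of all 9679 genes, and 2 were higher, Rpl22l1 at 0.93 and Rplp0 at 0.64, beside 12.9%. In alpha cells 46 were lower, beside 22.1%, and none higher, beside 21.6%. In delta cells 31 of 82 were lower, beside 18.7%, and Rpl22l1 was higher at 0.66, beside 12.8%. The lowest member was Rpl13a at -2.06 in beta cells, Rps15 at -2.80 in alpha cells and Rpl23a at -2.35 in delta cells, all 3 among the members that stood highest at 1 week against WT. These ratios share the 1-week and the 5-week libraries with the ratios above and add no further library.

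Within each library the members were higher in alpha than in beta cells. In WT the log2 ratio of the shares was 0.59 (0.58 to 0.59), at 1 week 1.08 (1.07 to 1.08) and at 5 weeks 0.98 (0.98 to 0.99). Of 83 members, 36 were 1.5-fold or more higher in WT alpha than beta cells, beside 5.7% of all 6785 genes, and 1 was lower, beside 35.4%. At 1 week 76 were higher, beside 8.41% of all genes, and 1 lower, beside 34.7%, and at 5 weeks 60 were higher, beside 11.4%, and 1 lower, beside 27.3%. The median of all genes was below 0, at -0.37, -0.36 and -0.25, so that scaled to the other genes 72, 79 and 74 members were higher, beside 15%, 17.6% and 17.9% of all genes. With all UMIs in the total 82, 79 and 77 members were higher, beside 47%, 18.4% and 39.9%. Both sides of these ratios come from the same animals and library. Alpha cells were shallower than beta cells in each library, with medians of 765 UMIs in WT, 21709 at 1 week and 1896.5 at 5 weeks. Among cells of 1000 to 3500 UMIs, 35 members were 1.5-fold or more higher in WT and 68 at 5 weeks, beside 5.31% and 11% of all genes.

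In WT the highest alpha to beta ratios were those of Rpl13a at 1.00 (0.71 to 1.28), Rps26 at 0.99 (0.88 to 1.10), Rpl13 at 0.99 (0.95 to 1.03), Rps15a at 0.98 (0.92 to 1.04) and Rps3a1 at 0.94 (0.90 to 0.98). Rpl13 stood at 3689 CPM in beta and 7321 in alpha cells. Rpl7l1 was the gene on the other side, at 65.0 and 26.3 CPM and a ratio of -1.31 (-1.87 to -0.79), and it was lower in alpha cells at 1 week (-0.85) and at 5 weeks (-0.75) as well. The lowest subunit genes were Rps15 at -0.14 (-0.28 to 0.00), Rpl39 at -0.09 (-0.16 to -0.03) and Rpl41 at -0.07 (-0.11 to -0.02), with the paralog Rpl36al at -0.23 (-0.38 to -0.09). By group, 18 of 31 core 40S and 17 of 43 core 60S genes were 1.5-fold or more higher in WT alpha cells, beside 5.7% of all genes. Their medians were 0.60 and 0.54. The stalk genes Rplp0, Rplp1 and Rplp2 had 0.32, 0.72 and 0.39.

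**Figure D5:**
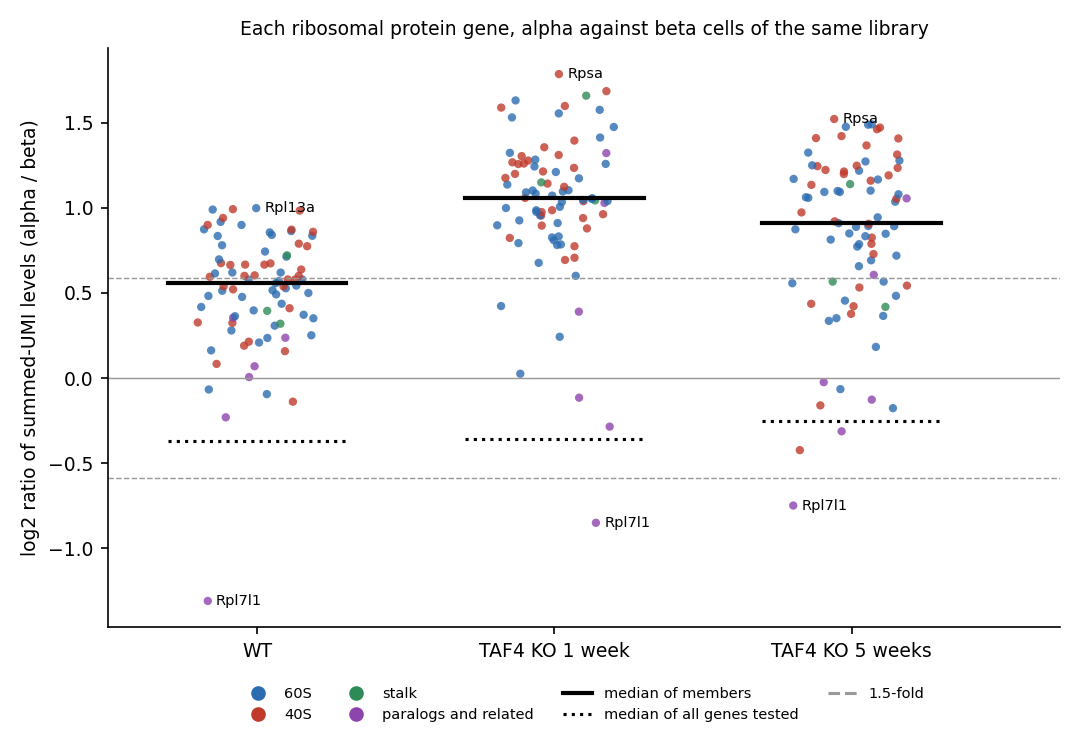
Log2 ratio of the level in alpha cells to that in beta cells of the same library on the y axis, for each member tested and each library on the x axis, where points are genes coloured by group, solid lines medians of the members, dotted lines medians of all genes tested and dashed lines 1.5-fold. Member medians lie at 0.56 in WT, 1.06 at 1 week and 0.91 at 5 weeks, above the medians of all genes, and Rpl7l1 lies lowest in each library.

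Delta cells stood nearer to beta cells. Delta over beta shares gave 0.09 (0.08 to 0.10) in the WT library. The 1-week library gave 0.31 (0.30 to 0.32) and the 5-week library 0.42 (0.41 to 0.43). In WT 1 of 83 members was 1.5-fold or more higher, beside 12.9% of all genes, and none was lower, beside 24.8%. At 1 week 12 were higher, beside 14.5%, and 1 lower, beside 19.2%, and at 5 weeks 28 were higher, beside 15.4%, and 2 lower, beside 20%. With hormones and mitochondrial genes in the total 81, 66 and 77 members were higher, but so were 72%, 39.9% and 71.5% of all genes. The gene past the fold in WT was Rps26, near the exit of the mRNA from the 40S subunit, at 416 CPM in beta and 659 in delta cells and a ratio of 0.66 (0.43 to 0.88). It was followed by Rps15a at 0.51, Rps12 at 0.48, Rps3a1 at 0.46 and Rps9 at 0.39, while Rpl36al at -0.53, Rps15 at -0.52, Rps27l at -0.51, Rpl41 at -0.45 and Rps2 at -0.39 were lowest. Rpl41 and Rps15 were thus near the low end against beta cells in both alpha and delta cells of WT. Rps27l at 1 week was the furthest member below beta cells, at -1.30.

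Lists of other genes of protein synthesis were set beside the members in beta cells at 5 weeks, where the median member was at -0.40 and the median of all genes at 0.08. Of 40 ribosome assembly genes tested, 14 were 1.5-fold or more higher than in WT and 1 was lower, with a median of 0.47, beside the same 16.4% and 12.8% of all genes. Nop56, of the box C/D particles that modify ribosomal RNA, stood at 37.1 CPM in WT and 92.3 at 5 weeks, and Nop10 was the lower one at -0.77. Of 42 initiation factors 9 were higher and 2 lower, with a median of 0.22, from Eif2s3x at -0.84 to Pabpc1 at 1.06. None of the 6 elongation genes tested was past 1.5-fold, and Eef1a1, which brings the transfer RNA, had 0.17. Of 77 mitochondrial ribosomal protein genes 8 were higher and 4 lower, with a median of 0.08. Fau, whose product Rps30 is a 40S protein that the rule leaves out by its symbol, stood at 2613 CPM in WT and 1426 at 5 weeks, a ratio of -0.87, near the lowest members. Rack1, on the 40S head, had 0.32. Of the 10 stress genes 8 were higher, with a median of 1.70.

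At 1 week in beta cells the same lists gave 30 of 41 assembly genes higher and 3 lower, 24 of 42 initiation factors higher and 0 lower, and 4 of 6 elongation genes higher and 0 lower, beside 31.5% and 15.5% of all genes. Eef2, the translocase, stood at 420 CPM in WT, 1491 at 1 week and 399.9 at 5 weeks. In alpha cells it had 464, 2544 and 445. Like Rpl13a and Rps15, it was thus high in the 1-week library alone. Eif3c, of the largest initiation complex, stood at 119, 679 and 209 in beta cells. Of the mitochondrial ribosomal genes 10 of 76 were higher and 21 lower, with a median of -0.19.

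Rpl39l was the member not tested in any comparison. It had 2 UMIs in WT beta cells and 0 in WT alpha and delta cells and in all classes at 1 week, and stood at 0.467, 0.577 and 0.727 CPM at 5 weeks. Rps27rt and Rps19bp1 also fell under the UMI minimum in delta cells at 5 weeks against WT, and with Rpl7l1 at 1 week against WT.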

How the data were processed

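Single-cell libraries of sorted live islet cells were made with the 10X Genomics Chromium 3′ assay. Per the labels and the methods of the study, the authors demultiplexed with bcl2fastq 2.17.1.14, aligned to mm10 and counted UMIs with Cell Ranger 3.1, and used Seurat 3.1.4 downstream. The deposited values are raw UMI counts per gene and cell, not normalized. For WT alone the authors had removed cells high in more than 1 hormone and doublets called by DoubletFinder, then reduced the table to 12000 cells. The mutant tables had no such step stated, and no doublet caller was run here.

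From these counts, UMIs were summed over the cells of each class and library. A gene was tested with 100 or more UMIs in both pools together and 3 or more in each, and past the fold at 1.5-fold. Exact Poisson, Clopper-Pearson and conditional binomial intervals (95%) were computed with Python 3.11.15, numpy 2.4.6, scipy 1.17.1 and pandas 2.3.3, plotted with matplotlib 3.10.9, and tested on simulated data. They cover counting error only. Counts are per molecule, and the counting could split reads among near-identical copies. The members, gene lists and thresholds were chosen with earlier results of these data known. Named were the 5 highest and 5 lowest ratios of 5 weeks to WT in each class, of 1 week to WT in beta cells and of alpha and delta to beta cells in WT, the 10 most abundant in WT beta cells, and all stalk, paralog and X-linked members. Other members are named beside a result they belong to, and 3 members are in every count and sum but not reported singly here. Promoters came from RefSeq, GRCm38.p6, with 64 of 84 members matched. Alternatives changed the total, the scaling, the cells, the depth, the fold and the UMI minimum. Those on mitochondrial share alone, on cells of 1000 to 3500 UMIs and on 5000 UMIs with the thresholds of each library were chosen after seeing the data.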

Additional observations from a re-analysis of the deposited data

Results flagged for a closer look

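Among the members looked at, 7 had ratios of 1 week to WT on opposite sides of 0 in a pair of classes. Neither interval reached 0, and the pair was 1.5-fold or more apart. These differences were not tested, since each class comes from 1 library per condition. Only members named for an extreme ratio, for their abundance or by list were looked at, not those named beside another result. The share of all genes that meet the rule is not known. With all UMIs in the total, the beta ratios of Rpsa, Rpl39 and Rplp0 were above 0, at 0.10, 0.21 and 0.31. That total moves every beta ratio up by the same amount, as it moved the sum from 0.00 to 0.92. The beta ratios of Rps2, Rpl27a and Rpl36al, less far below 0 than that of Rpsa, were thus above 0 under it too. Between beta and alpha cells the ratio was lower in beta cells by 1.12 for Rpsa (-0.81 and 0.30), by 0.89 for Rpl39 (-0.71 and 0.17) and by 0.82 for Rps2 (-0.24 and 0.57). It was likewise lower by 0.74 for Rpl27a (-0.18 and 0.56) and by 0.72 for Rplp0 (-0.61 and 0.12). As signed differences of beta from alpha these are -1.12, -0.89, -0.82, -0.74 and -0.72. Between beta and delta cells Rpl36al had -0.51 and 0.42, a difference of -0.93, and Rps27l had 0.14 and -0.65, a difference of 0.79. Among the members looked at, no ratio of 5 weeks to WT met both conditions.

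Cells outside the 3 classes enter no comparison above. The members made up 13.7% of their UMIs at 1 week (1521 cells) and 12.6% at 5 weeks (981 cells), against 10.4% in WT (295 cells). The rows named as ribosomal protein pseudogenes, which the rule leaves out, summed to 254 CPM at 5 weeks, against 237 CPM in WT and 234 CPM at 1 week.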

How the results depend on the processing

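No paired analysis was possible because each condition is 1 library and no 2 libraries share animals. With no replicate library, counting intervals are narrow and the spread between animals is unknown, and the 38 delta cells at 1 week limit that class most. The 6 ratios of the summed members against WT (beta, alpha and delta at 5 weeks -0.46, -0.06 and -0.13, at 1 week 0.00, 0.49 and 0.23) kept their direction under every alternative run other than those of beta cells at 1 week. In beta cells at 5 weeks this held by little with the 1-week thresholds and 5000 UMIs. There the sum was at -0.03 and the median member at 0.03, beside a median of 0.39 over all genes. The cause of each shift was not tested.

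At 5 weeks, with all UMIs in the total the beta and alpha ratios were -0.36 and -0.18. With median-ratio scaling the beta, alpha and delta ratios were -0.54, -0.24 and -0.17. The beta ratio was -0.50 as a mean over cells, -0.47 without cells of more than 1 class, -0.47 with stricter purity, -0.49 under the study limits of 200 to 1500 genes and under 15% mitochondrial UMIs, -0.45 at 5000 UMIs with the thresholds of each library, and -0.03 with the 1-week thresholds and 5000 UMIs. Without acinar, haemoglobin and nuclear RNA genes in the total, beta, alpha and delta were -0.45, -0.07 and -0.15. Among cells of 1000 to 3500 UMIs they were -0.53, -0.04 and -0.07. Stricter purity gave -0.02 in alpha cells, and leaving out cells of more than 1 class gave -0.15 in delta cells.

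At 1 week, with all UMIs in the total the beta, alpha and delta ratios were 0.92, 0.89 and 0.54, and with median-ratio scaling -0.23, 0.26 and 0.19. Means over cells gave -0.03 in beta and 0.49 in alpha cells, and stricter purity -0.03 in beta and 0.18 in delta cells. Without acinar, haemoglobin and nuclear RNA genes they were 0.02, 0.48 and 0.21. The beta ratio was 0.39 with the 1-week thresholds in WT too, 1.14 under the study limits, -0.05 with a minimum of 2000 UMIs, 0.02 under 15% mitochondrial UMIs and -0.02 at 5000 UMIs with the thresholds of each library.

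Counts of members past the fold moved as well, and the share of all genes past the same fold follows each in parentheses. The 24 lower at 5 weeks in beta cells (12.8%) became 3 with the 1-week thresholds (10.9%) and 2 at 2-fold (5.02%). The 2 in alpha cells (4.06%) became 4 with median-ratio scaling (8.27%), 1 among cells of 1000 to 3500 UMIs (5.79%) and 0 at 2-fold (0.948%). The 2 in delta cells (7.31%) became 4 (13.7%) and 0 (1.5%) under the last pair of these. Of the counts higher at 1 week, the 20 in beta cells (31.5%) became 66 with all UMIs (76.4%) and 13 with median-ratio scaling (20.9%). They became 35 with the 1-week thresholds (39%), 71 under the study limits (34.1%) and 9 at 2-fold (14.2%). The 39 in alpha cells (33.2%) became 62 with all UMIs (52.5%) and 21 at 2-fold (18.2%), and the 27 in delta cells (24.9%) 11 at 2-fold (10.9%). Between classes, members 1.5-fold or more higher in alpha than beta cells were 36 in WT (5.7%), 76 at 1 week (8.41%) and 60 at 5 weeks (11.4%). In WT they came to 82 with all UMIs (47%) and 72 with median-ratio scaling (15%). At 2-fold the 3 libraries had 0 (2.55%), 50 (4.18%) and 38 (6.22%). Those higher in delta than beta cells were 1 (12.9%), 12 (14.5%) and 28 (15.4%), and with all UMIs 81 (72%), 66 (39.9%) and 77 (71.5%). With median-ratio scaling they were 4 in WT (18.5%) and 18 at 1 week (17.2%). There were 3 in WT among cells of 1000 to 3500 UMIs (28.2%) and 12 at 5 weeks with the 1-week thresholds (7.34%). At 2-fold the 3 libraries had 0 (5.1%), 1 (6.52%) and 2 (7.02%).

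Among the members named for an extreme ratio, for their abundance or by list, 15 ratios turned, counted per alternative. Only ratios 1.5-fold or more from WT whose interval did not reach 0 were counted. Smaller ratios that changed sign are not among these 15. With the 1-week thresholds at 5 weeks in beta cells, Rpl22l1 came to 0.08 and Rpl27a to 0.13. At 1 week in beta cells, Rpl19, Rpl39, Rplp0, Rps27a, Rps4x and Rpsa came to 0.32, 0.21, 0.31, 0.00, 0.28 and 0.10 with all UMIs in the total, and to 0.59, 0.48, 0.91, 0.43, 0.51 and 0.63 under the study limits, and Rps27rt to -0.12 at 5000 UMIs with the thresholds of each library. Fewer than 10 cells were left for the matched-depth ratios of alpha and delta cells to WT, for alpha and delta cells at 1 week under the study limits and for 1000 to 3500 UMIs at 1 week, so no value was given there.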
